A study of Mus musculus with 29 samples.

Results

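Among 16 libraries of non-tumour mouse liver, Mug2 messenger RNA was either abundant or nearly absent, with no library in between, and the 2 sides are compared here for every other gene. A liver was placed on the high side when Mug2 was at 400 CPM (counts scaled to a fixed library total) or more in the deposited table, and on the low side when it was below 400 CPM. By that rule 8 of the 16 libraries were high and 8 were low, out of 29 libraries in the whole series; the other 13 libraries came from liver tumours. The mice were C57BL/6 animals, labelled IL17RA-/- or WT, and all of them, in every group, had received the liver carcinogen diethylnitrosamine (DEN) at 25 mg/kg intraperitoneally at 2 weeks of age. They were then fed for 18 weeks on a diet whose label is HFD_alcohol or HFD; the series text speaks of liquid ethanol and pair feeding, and the labels' words are used here. Non-tumour liver had 5 labelled and 5 WT libraries on HFD_alcohol and 3 labelled and 3 WT libraries on HFD, and the tumours had 4 labelled and 3 WT libraries on HFD_alcohol and 3 labelled and 3 WT libraries on HFD. The exons deleted in the IL17RA-/- line, the sex of the animals and whether a tumour and a non-tumour library came from the same mouse are not stated in the labels used here.

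Mug2 encodes a murinoglobulin, a secreted protease inhibitor of the alpha-2-macroglobulin family, which hepatocytes release into the blood of rodents. Its relatives Mug1, A2m, Pzp and A2ml1 lie with it on mouse chromosome 6. The same chromosome carries Il17ra, the receptor chain shared by several interleukin-17 ligands, and the natural killer gene complex, a cluster of C-type lectin-like receptors and their ligands. The position of each gene relative to Il17ra, the gene named in the genotype label, is given below. All coordinates are on GRCm38 with the GENCODE M21 annotation. Il17ra spans 120463247 to 120487559 of chromosome 6, and Mug2 spans 122006761 to 122085965, with its start 1.54 Mb from that of Il17ra.

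The promoters of Mug2 and of its closest relative Mug1 are shown because a library's Mug2 level decides its side while Mug1 stays abundant throughout. Each window is 300 bases long, most of it upstream of the gene's start in RefSeq, on GRCm38.p6 and the plus strand, at chr6:122006548-122006847 for Mug2 and chr6:121838291-121838590 for Mug1. Capitals mark 2 motifs that were searched on both strands, ATAAATA and the palindrome GTTAAC; the matches do not overlap. Counted from the RefSeq start of the gene, ATAAATA is at -27 in the Mug2 window and at 10, downstream of the start, in the Mug1 window, where GTTAAC is at -64.
Mug2: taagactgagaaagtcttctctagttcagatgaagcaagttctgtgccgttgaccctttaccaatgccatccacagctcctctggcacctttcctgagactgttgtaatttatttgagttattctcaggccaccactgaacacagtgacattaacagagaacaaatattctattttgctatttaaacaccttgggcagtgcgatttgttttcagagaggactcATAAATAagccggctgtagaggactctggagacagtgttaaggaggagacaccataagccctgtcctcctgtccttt
Mug1: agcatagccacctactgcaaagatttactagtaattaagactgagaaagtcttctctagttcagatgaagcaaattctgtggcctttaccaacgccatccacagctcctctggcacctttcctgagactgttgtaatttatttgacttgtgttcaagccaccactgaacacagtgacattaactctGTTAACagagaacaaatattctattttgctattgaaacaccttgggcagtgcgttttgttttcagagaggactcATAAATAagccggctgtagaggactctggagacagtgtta
Over 272 aligned columns the windows were identical in 247, or 90.8%, and 16 columns held a gap. ATAAATA occurred in both windows and in 5.60% of 32851 RefSeq promoter windows of this length. GTTAAC occurred in the Mug1 window, in 3.05% of all windows, and not among the letters of the Mug2 window. The transcripts are also alike: 21.3% of the 50-base words of the longest Mug2 transcript occur in Mug1, so reads can be shared between these genes and the Mug1 and Mug2 values are uncertain to that extent.

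The libraries of each side were selected on Mug2 itself, so its values are a description and were not tested. On the high side its level was 1282 and 1454 CPM in labelled HFD_alcohol replicates 4 and 5, and 1019 and 1178 CPM in WT HFD_alcohol replicates 2 and 4. It was 776 and 1184 CPM in labelled HFD replicates 2 and 3, and 1073 and 1056 CPM in WT HFD replicates 1 and 3. On the low side it was 25.4, 39.7 and 75.9 CPM in labelled HFD_alcohol replicates 1, 2 and 3, and 55.7, 55.6 and 37.0 CPM in WT HFD_alcohol replicates 1, 3 and 5. The remaining low libraries were labelled HFD replicate 1 at 25.5 CPM and WT HFD replicate 2 at 41.1 CPM. The mean was 1128 ± 200 CPM on the high side and 44.5 ± 17.1 CPM on the low side (SD, n = 8 each), a ratio of 25.3. The libraries nearest the cut-off were at 776 CPM above it and 75.9 CPM below it, and a cut-off of 200 CPM gave the same 8 high libraries, while 800 CPM gave 7.

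Neither side belonged to 1 genotype label. The high side held 4 labelled and 4 WT libraries, and the low side held 4 and 4. By diet the high side had 4 libraries on HFD_alcohol and 4 on HFD, and the low side had 6 and 2. In tumours, by contrast, the label and Mug2 went together without overlap: the 7 labelled tumours had 19.9 to 209 CPM and the 6 WT tumours had 1009 to 2346 CPM. Of the 16 non-tumour libraries, 8 were on the side of the tumours that carry the same label and 8 were on the other. Read by the pattern of the tumours, Mug2 thus goes against the label in 8 non-tumour libraries, and why it does was not tested; the label is reported below as a label.

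**Figure D1:**
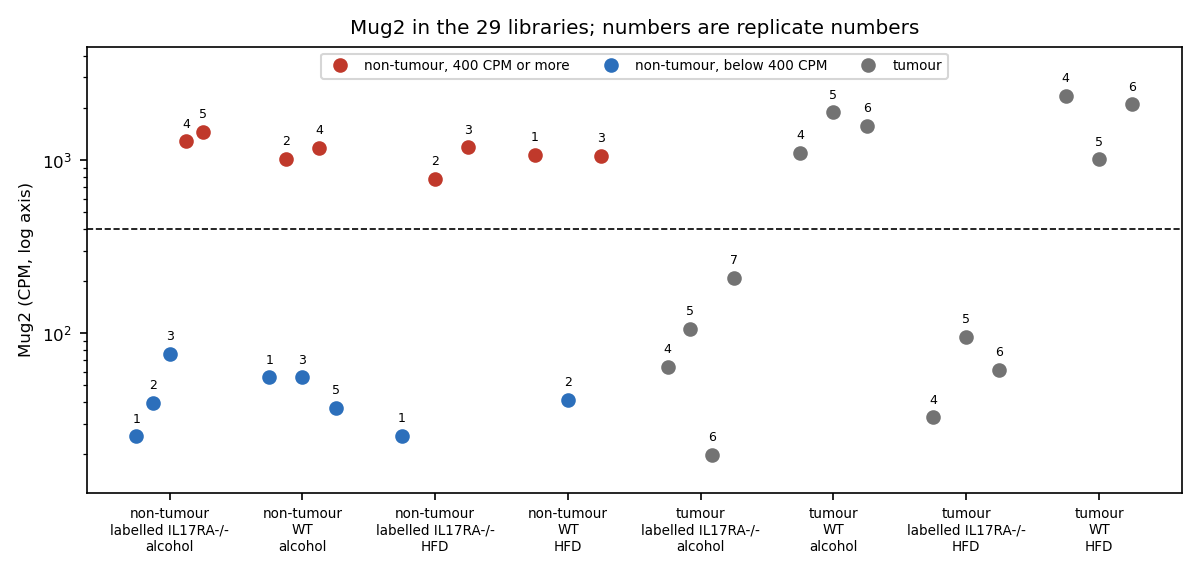
Mug2 level in CPM (log axis) in each of the 29 libraries by tissue, genotype label and diet, with replicate numbers beside the points; the dashed line is the 400 CPM cut-off. The 16 non-tumour livers split into 8 at 776 to 1454 CPM and 8 at 25.4 to 75.9 CPM within every label and diet, while labelled tumours lie below 400 CPM and WT tumours above it.

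Depth and tissue markers overlapped between the sides. The recovered counts per library were 4653422 to 9660584 on the high side and 5869393 to 9161647 on the low side. Hepatocyte transcripts dominated: Alb, serum albumin, was at 32271 to 58784 CPM on the high side and 27330 to 44575 CPM on the low side. Clec4f, which marks Kupffer cells, had 69.3 to 239 CPM on the high side and 73.9 to 297 CPM on the low side. Krt19, a bile duct keratin, and Cd3e, a T cell receptor component, stayed at or below 1.02 and 1.68 CPM. Of 4 libraries that stood out on inspection, WT HFD replicate 1 and labelled HFD replicate 3, both on the high side, had the fetal liver transcript Afp at 141 and 155 CPM, against 0.873 to 32.4 CPM in the 12 libraries left when all 4 are set aside. Labelled HFD_alcohol replicate 4, on the high side, and replicate 2, on the low side, had summed cholesterol synthesis transcripts of 4131 and 5225 CPM, against 1451 to 2437 CPM in those 12. Calls that change without these 4 libraries, and the medians of gene lists without them, are given below.

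Il17ra, the gene named in the genotype label, was measured in every library. By label it had 15.9, 23.9 and 37.0 CPM (lowest, median and highest of 8) in labelled non-tumour livers, against 16.1, 26.8 and 42.5 CPM in WT non-tumour livers. These ranges overlap over most of their length. The difference was -0.10 ± 0.20 (SE) on the log2(CPM + 1) scale, with an adjusted p of 0.9983 by limma with diet in the model and Benjamini-Hochberg adjustment over 12829 genes. A gene total over undeleted exons need not fall in a knockout, so this value does not check the labels. By Mug2 side Il17ra separated more, with 15.9, 20.8 and 26.9 CPM on the high side, against 20.1, 30.9 and 42.5 CPM on the low side. The log2 difference, high minus low, was -0.56 ± 0.15, with an unadjusted p of 0.00148 and an adjusted p of 0.9997, which does not pass.

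The question put to the 16 libraries is which other genes go with Mug2. The test was limma on log2(CPM + 1), high minus low, over 12828 genes that reached 1 CPM in 3 or more of the libraries, and a gene was called at an adjusted p under 0.05. Because 1 measured gene defined the sides, a call says that a gene goes with Mug2 across these livers and not that a treatment changed it. The labels do not say that libraries of 1 group came from separate animals, and the p-values measure the spread between libraries. Only 4 genes were called, which is 0.0312% of those tested, 3 higher (0.0234%) and 1 lower (0.0078%) on the high side. All 4, Clec2h, Bid, A2ml1 and Rassf4, lie on chromosome 6 within 10 Mb of Il17ra.

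Clec2h encodes a C-type lectin-like protein of the Clr family, whose members serve as ligands for NKR-P1 receptors of natural killer cells. It lies at 128662385 to 128677374 of chromosome 6 on the plus strand, with its start 8.20 Mb from that of Il17ra. Its level was 1.91, 5.93 and 15.7 CPM (lowest, median and highest of 8) in high-Mug2 livers, against 0, 0.189 and 0.677 CPM in low-Mug2 livers. The sides do not overlap, and 2 low libraries had no count at all. Summed over libraries, 375 counts fell on the high side and 17 on the low side. The fitted difference was 2.42 ± 0.30 on the log2(CPM + 1) scale (adjusted p = 0.00357, limma), and it depends on the pseudocount because the low side is near 0. No low library reached 1 CPM, so Clec2h passed the filter of 1 CPM in 3 libraries only through the side where it is high. In bulk tissue, fewer cells of a type and less RNA per cell cannot be told apart. The summed T and NK cell markers overlapped. They were at 9.56 to 52.7 CPM on the high side and 9.76 to 27.6 CPM on the low side. Of the 11 tested 0 were called, against 0.0312% of all genes tested, so that count says little. The cells that express Clec2h are not identified here, so T and NK markers do not give their number. Whether cell numbers bear on Clec2h was not tested.

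Bid encodes a BH3-only protein that carries the death receptor signal to mitochondria after cleavage by caspase-8. It is the nearest called gene to Il17ra, at 120891930 to 120916853 on the minus strand, 0.43 Mb away. Its level was 11.6, 14.5 and 17.0 CPM in high-Mug2 livers, against 2.51, 6.55 and 8.02 CPM in low-Mug2 livers. The sides do not overlap. The mean was 14.4 ± 2.2 CPM on the high side and 6.23 ± 1.90 CPM on the low side (SD, n = 8 each), a log2 difference of 1.134 ± 0.170 (adjusted p = 0.0216, limma). Clec2h and Bid were the only genes of the 12828 tested, 0.0156%, whose sides did not overlap.

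A2ml1, an alpha-2-macroglobulin-like protease inhibitor and thus a relative of Mug2, lies at 128539821 to 128581608 on the minus strand, 8.08 Mb from Il17ra. It had 1.23, 4.13 and 14.6 CPM in high-Mug2 livers, against 0.140, 0.539 and 1.36 CPM in low-Mug2 livers. The sides overlap at 1 library each, WT HFD_alcohol replicate 2 on the high side and WT HFD replicate 2 on the low side. The difference was 1.76 ± 0.29 on the log2(CPM + 1) scale (adjusted p = 0.0467, limma). Only 2 low libraries reached 1 CPM, so it too passed the filter through the high side. No 50-base word of its longest transcript occurs in Mug1, Mug2, A2m or Pzp. Labelled HFD replicate 3, which was high in Afp, also held the highest A2ml1 value. Without that library alone A2ml1 was still called, while without the 4 libraries named above it was not.

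Rassf4, of the Ras association domain family, was the 1 gene called lower. It lies at 116633008 to 116673952 on the minus strand, 3.83 Mb from Il17ra on the side away from Mug2. It had 9.98, 21.7 and 60.2 CPM in high-Mug2 livers, against 56.3, 88.0 and 93.9 CPM in low-Mug2 livers. The sides overlap through labelled HFD_alcohol replicates 5 and 1. The means were 28.7 ± 17.9 CPM on the high side and 81.7 ± 13.6 CPM on the low side (SD, n = 8 each), a log2 difference of -1.68 ± 0.28 (adjusted p = 0.0467, limma). It too was not called without the 4 libraries.

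How firm these calls are differed by gene. Over 28 other settings of the fit, all 4 genes kept their direction; Clec2h was called in 24, Bid in 16, A2ml1 in 5 and Rassf4 in 3. When any 1 of the 16 libraries was left out, Clec2h was called each time (adjusted p 0.000596 to 0.0149), Bid 10 times, A2ml1 3 times and Rassf4 2 times. Bid lost its call (adjusted p 0.0503 to 0.0783, limma) without labelled HFD_alcohol replicate 1 or 5, WT HFD_alcohol replicate 3, 4 or 5, or WT HFD replicate 2. A2ml1 kept its call only without WT HFD_alcohol replicate 2, labelled HFD replicate 3 or WT HFD replicate 3 (adjusted p 0.00891 to 0.146 over the 16 fits, limma), and Rassf4 only without labelled HFD_alcohol replicate 5 or WT HFD replicate 1 (0.00757 to 0.155, limma). With diet and genotype label in the model 1 gene, Clec2h, was called. On counts recovered from the CPM with limma-voom the 1 call was Bid.

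Values within each label are given for description, since genes whose sides do not overlap over 16 libraries cannot overlap within a label or a diet. In fits within a label, labelled and WT in turn (4 against 4 each), none of the 4 genes was called: Bid had adjusted p-values of 0.9998 and 0.400 and Clec2h of 0.596 and 0.984 (limma), with log2 differences of 1.10 and 1.17 for Bid and 2.51 and 2.34 for Clec2h. On HFD_alcohol alone (4 high and 6 low) Clec2h was called (adjusted p = 0.00118, limma) and Bid was not (adjusted p = 0.833, limma). On HFD alone (4 high and 2 low) neither was called, with an adjusted p of 0.412 for Clec2h and 0.692 for Bid (limma). Among labelled libraries Bid was at 11.6 to 17.0 CPM on the high side and 2.51 to 8.02 CPM on the low side (4 libraries each), and among WT libraries it was at 13.3 to 16.4 CPM and 4.67 to 7.86 CPM. Clec2h was at 2.07 to 15.7 CPM on the high side and 0.149 to 0.558 CPM on the low side among labelled libraries, and at 1.91 to 10.9 CPM and 0 to 0.677 CPM among WT libraries. A2ml1 overlapped among WT libraries, and Rassf4 overlapped among labelled libraries and on HFD_alcohol. A test of the side by label interaction called 0 of 12828 genes (0%; limma, 384 or 2.99% at an unadjusted p under 0.05, and 0 called by limma-voom).

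Tmem121b, a transmembrane protein gene next to Il17ra (120488939 to 120493807, minus strand), was too low to be tested in non-tumour liver. It was the only one of 9358 untested genes whose sides did not overlap. A single count fell in the 8 high libraries together, against 33 counts in the 8 low libraries, all of which had at least 1. The level was 0 to 0.141 CPM on the high side and 0.160 to 1.22 CPM on the low side. The highest high library and the lowest low library each held 1 count, below the floor of 3 counts used here, so their order rests on depth.

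**Figure D2:**
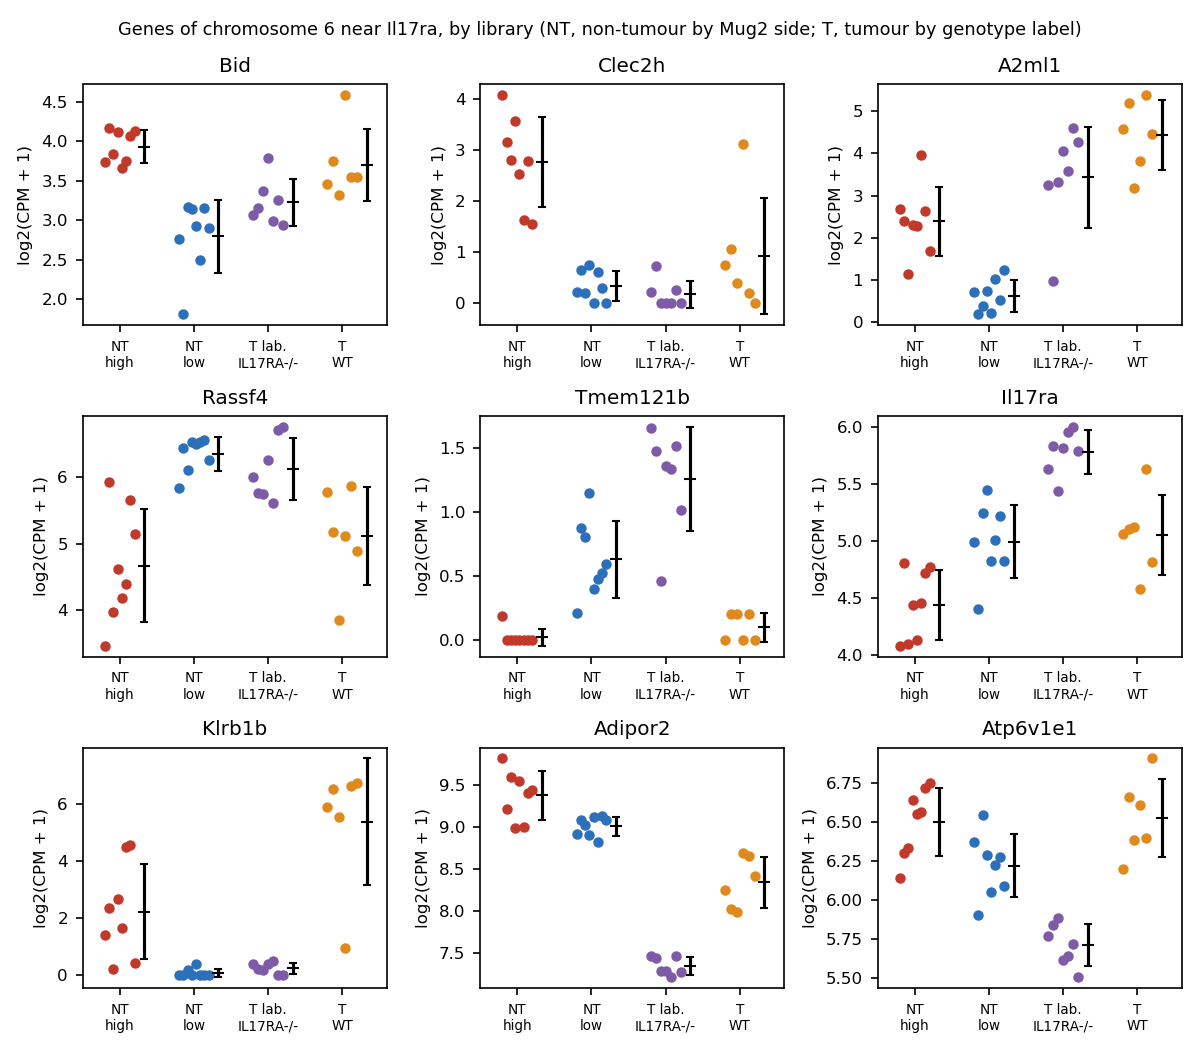
Levels, log2(CPM + 1), of 9 chromosome 6 genes in single libraries: 8 high-Mug2 and 8 low-Mug2 non-tumour livers (NT), 7 labelled IL17RA-/- and 6 WT tumours (T); bars are mean and SD. Bid and Clec2h do not overlap between the non-tumour sides, Rassf4 is lower on the high side, and Klrb1b is near 0 in low-Mug2 livers and labelled tumours.

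The share of genes with a low unadjusted p was larger within 20 Mb of Il17ra than beyond it. Within 10 Mb 18 of 163 genes tested (11.0%) had an unadjusted p under 0.05, against 226 of 12197 genes (1.85%) on other chromosomes and 263 of 12828 (2.05%) over the whole table. At 10 to 20 Mb, where no gene was called, it was 6 of 46 (13.04%), and on chromosome 6 beyond 20 Mb 13 of 422 (3.08%). A log2 difference of at least 0.5 in either direction was seen for 10 of the 163 (6.13%) and 5 of the 46 (10.9%), against 137 of 12197 (1.12%) on other chromosomes. Clec2h, Klrb1b and A2ml1 are among both the 18 and the 10. These genes passed the filter through the high side, so they are no support for a larger share near Il17ra. Shares without these genes are not given. The shares above describe neighbouring genes, which are not independent of each other, and no test was made of them. The median difference within 10 Mb was 0.003, so the region had genes on both sides of 0.

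**Figure D3:**
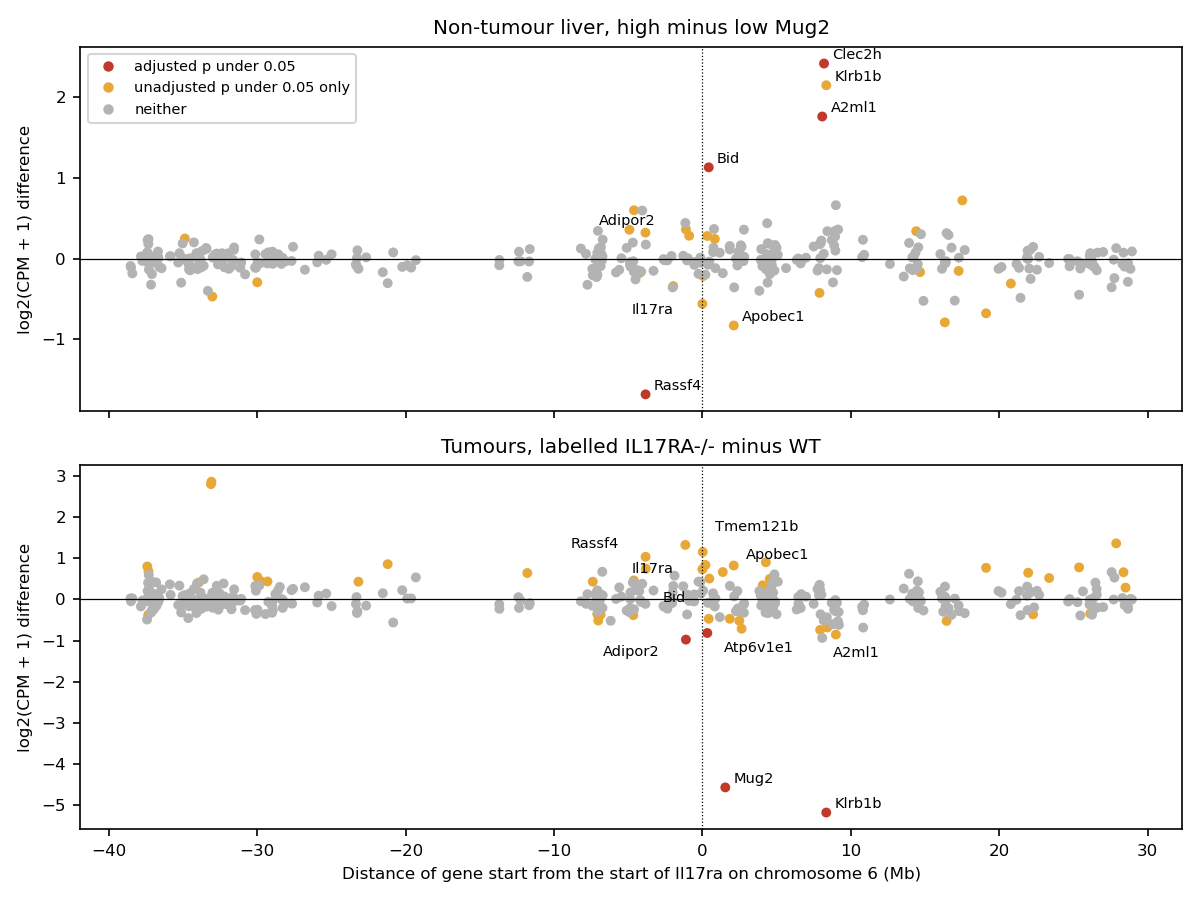
Difference on the log2(CPM + 1) scale for every tested gene within 40 Mb of the Il17ra start: high minus low Mug2 in non-tumour liver (upper) and labelled IL17RA-/- minus WT in tumours (lower). Points with an adjusted p under 0.05 are red and lie within 10 Mb of Il17ra in both panels; the differences are positive and negative in each.

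The genes of the window that did not pass after adjustment are given by their values. Ift122, of the ciliary transport machinery, had 5.48, 7.21 and 9.32 CPM in high-Mug2 livers, against 3.41, 4.09 and 5.96 CPM in low-Mug2 livers (adjusted p = 0.384, limma). Apobec1, the cytidine deaminase that edits the Apob message, had 13.4, 21.9 and 36.3 CPM in high-Mug2 livers, against 21.2, 38.4 and 63.9 CPM in low-Mug2 livers (adjusted p = 0.9997, limma). Adipor2, a receptor for adiponectin, had 506, 682 and 896 CPM on the high side, against 451, 527 and 560 CPM on the low side (adjusted p = 0.9997, limma). In each of these the medians of the sides stand apart while the ranges overlap. Klrb1b, an NKR-P1 receptor of the natural killer gene complex, had 0.153, 3.145 and 22.8 CPM on the high side, against 0, 0 and 0.316 CPM on the low side, and 6 low libraries had no count. No low library reached 1 CPM, so Klrb1b passed the filter only through the high side. Its highest high values came from the 2 libraries that were high in Afp, and its adjusted p was 0.9997 (limma). Erc1, Slc6a13, Zfp422 and Atp6v1e1 were higher on the high side by 0.25 to 0.32 on the log2 scale, while Ankrd26, Hdhd5, Washc2 and Rhno1 had log2 differences of -0.42 to -0.18, none with an adjusted p under 0.05. Adipor2, Klrb1b, Atp6v1e1 and Apobec1 were already known from the tumours of this series, and those named here apart from the called genes, Ift122, Il17ra and the tumour-called ones were chosen after their values were seen.

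The tumours took no part in the rule, so the same genes were read there by genotype label. The test was limma with diet in the model, labelled minus WT, over 13269 genes in 7 labelled and 6 WT tumours. It called 5 genes, 0.0377% of those tested, 1 higher (0.00754%) and 4 lower (0.0301%) in labelled tumours, while 9.93% had an unadjusted p under 0.05. The 4 lower ones, Mug2, Klrb1b, Adipor2 and Atp6v1e1, lie within 10 Mb of Il17ra. The calls for these genes were known before this comparison was made and are not independent support for it; the higher one was Lars2 on chromosome 9. The same-label comparison in non-tumour liver called 0 of 12829 genes (0%; 281 at an unadjusted p under 0.05 by limma, and 0 by limma-voom).

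None of the 4 genes called in non-tumour liver was called in tumours. Bid had 6.69, 7.91 and 12.9 CPM (lowest, median and highest) in labelled tumours, against 8.94, 10.7 and 22.9 CPM in WT tumours, a log2 difference of -0.47 ± 0.21 (adjusted p = 0.484, limma). Rassf4 had 48.0, 63.3 and 107 CPM in labelled tumours, against 13.3, 34.5 and 57.7 CPM in WT tumours, a log2 difference of 1.04 ± 0.29 (adjusted p = 0.452, limma). A2ml1 had 0.968, 10.9 and 23.4 CPM in labelled tumours, against 8.03, 21.9 and 40.5 CPM in WT tumours (adjusted p = 0.534, limma). All 3 overlapped between labels, and all 3 had the sign that low against high Mug2 had in non-tumour liver. Clec2h did not reach the filter in tumours, with 6 counts in 7 labelled tumours and 81 in 6 WT tumours. WT HFD tumour replicate 4 had the highest value, 7.66 CPM.

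The genes called in tumours separated the labels there. Klrb1b was at 0 to 0.416 CPM in labelled tumours and at 0.928 to 106 CPM in WT tumours (adjusted p = 0.0158, limma). No labelled tumour reached 1 CPM, so Klrb1b passed the filter only through the WT tumours, where it is high. Adipor2 was at 147 to 176 CPM in labelled tumours and at 253 to 413 CPM in WT tumours (adjusted p = 0.0051, limma), and Atp6v1e1, a subunit of the vacuolar proton pump, at 44.3 to 58.0 CPM and 72.5 to 119 CPM (adjusted p = 0.0244, limma). Leaving out 1 tumour at a time, Adipor2 was called in 13 of 13 fits, Klrb1b in 9 and Atp6v1e1 in 5; Klrb1b lost its call without WT HFD_alcohol replicate 4, 5 or 6 or labelled HFD replicate 6 (adjusted p 0.0534 to 0.0732, limma). Atp6v1e1 lost its call without any 1 of 8 tumours: labelled HFD_alcohol replicates 4 and 7, WT HFD_alcohol replicates 5 and 6, labelled HFD replicates 4, 5 and 6 and WT HFD replicate 4 (adjusted p 0.0526 to 0.127, limma). The groups do not overlap for these 3 genes; 45 of the 13269 genes (0.339%) had no overlap. Tmem121b, tested in tumours only, had 58 counts in labelled tumours and 3 in WT tumours, or 0.374 to 2.14 CPM and 0 to 0.155 CPM, with no overlap and an adjusted p of 0.153 (limma). No WT tumour reached 1 CPM, so Tmem121b passed the filter only through the labelled tumours. Il17ra was at 42.4, 55.1 and 62.9 CPM in labelled tumours, against 22.9, 32.9 and 48.5 CPM in WT tumours (log2 difference 0.73 ± 0.16, adjusted p = 0.402, limma).

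The signs of the differences were then compared between the tissues, high minus low Mug2 in non-tumour liver against labelled minus WT in tumours. Of the 159 genes within 10 Mb tested in both, 103 (64.8%) had opposite signs, against 6759 of 11984 (56.4%) on other chromosomes. Of the 17 genes within 10 Mb that had an unadjusted p under 0.05 in non-tumour liver and were tested in both tissues, 17 had the opposite sign in tumours, against 165 of 247 such genes (66.8%) over the whole table. At 10 to 20 Mb it was 2 of 5 (40%); the other 3, Gpr19, Hebp1 and Strap, singled out after their values were seen, had the same sign in both tissues. Of the 27 genes within 10 Mb with an unadjusted p under 0.05 in tumours, 22 (81.5%) had opposite signs, against 831 of 1250 (66.5%) over the whole table. The 7 genes within 10 Mb with an unadjusted p under 0.05 in both tissues all had opposite signs. They were 41.2% of the 17 in non-tumour liver and 25.9% of the 27 in tumours. Among all genes tested in both tissues 35 were under 0.05 in both, and 27 of these 35 had opposite signs. These 35 were 14.2% of the 247 in non-tumour liver and 2.8% of the 1250 in tumours. On other chromosomes 15 of 22 such genes had opposite signs. Over the 159 genes the differences correlated at r = -0.66 across genes, against -0.15 over 11984 genes on other chromosomes. With the genotype label in place of the Mug2 side in non-tumour liver, the correlation with the tumour label within 10 Mb was 0.01. Klrb1b, which is among the 17, the 27 and the 7, passed the filter in each tissue only through the group where it is high. Its opposite signs were thus fixed in advance and are no support. A2ml1, also among the 17, passed the filter in non-tumour liver through the high side. Both genes enter the correlation, and values without these 2 genes are not given. These are descriptions across neighbouring genes that share libraries, Klrb1b lies far from the rest, and no test was made.

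**Figure D4:**
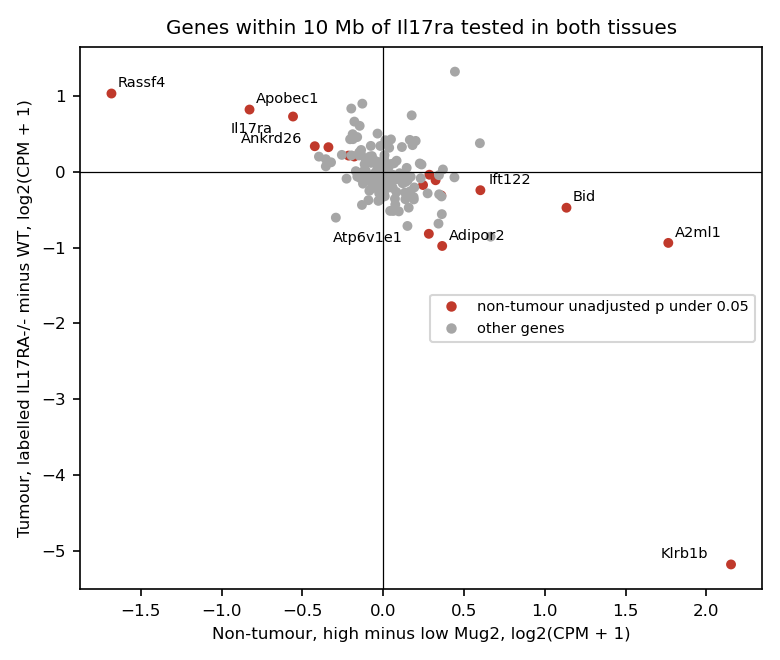
Genes within 10 Mb of Il17ra tested in both tissues: high minus low Mug2 in non-tumour liver (horizontal) against labelled IL17RA-/- minus WT in tumours (vertical), both as log2(CPM + 1) differences. The 17 genes with an unadjusted p under 0.05 in non-tumour liver (red) all lie in the upper left or lower right of the zero lines. Klrb1b and A2ml1, which are among them, passed the non-tumour filter through the high side.

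A2ml1 was the only member of the alpha-2-macroglobulin family to be called. Mug1 had 3575, 5526 and 6483 CPM in high-Mug2 livers, against 3622, 6228 and 7149 CPM in low-Mug2 livers (log2 difference -0.18 ± 0.16, adjusted p = 0.9997, limma). Pzp, the pregnancy zone protein, had 4877, 6874 and 9541 CPM on the high side, against 4197, 5847 and 6682 CPM on the low side (adjusted p = 0.9997, limma). A2m reached at most 3.42 CPM on the high side and 3.93 CPM on the low side. Of the family's 4 tested members other than Mug2, 1 was called, A2ml1, and 3 had a positive difference; the median was 0.15, against 44.0% positive and a median of -0.02 over all genes tested. Without the 4 libraries set aside above 2 were positive and the median was -0.0036.

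The other interleukin-17 receptor chains and their adaptors overlapped between the sides. Il17rc, which pairs with Il17ra and also lies on chromosome 6, 6.99 Mb away, had 15.96, 19.4 and 21.9 CPM on the high side, against 15.9, 19.9 and 24.8 CPM on the low side. Il17rb had 5.09, 8.13 and 13.03 CPM on the high side, against 5.16, 8.03 and 10.7 CPM on the low side. Il17rd, the adaptor Traf3ip2 and the ubiquitin ligase Traf6 also overlapped, and Il17re reached at most 0.306 CPM. Of the 6 tested, Il17ra included, 0 were called, against 0.0312% of all genes tested. Of 18 tested genes known to respond to interleukin-17, such as S100a8, S100a9 and Lcn2, 0 were called and 10 had a positive difference (55.6%, against 44.0% over all genes), with a median of 0.01. That count was 7, with a median of -0.10, without the 4 libraries set aside above. It was 6 to 16 on leaving out 1 library, lowest without WT HFD replicate 1 and highest without labelled HFD_alcohol replicate 4.

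Of 36 natural killer complex lectin genes in the table, 19 were tested; Clec2h was the 1 called, 17 had a positive difference and the median was 0.17, against 44.0% positive and a median of -0.02 over all genes. The direction of the list was not kept in every subset: 6 of 16 were positive on HFD_alcohol alone (median -0.17) and 17 of 18 on HFD alone (0.55), 7 of 16 among labelled libraries (-0.03) and 16 of 16 among WT libraries (0.48). Without the 4 libraries 13 of 19 were positive (0.13). Leaving out 1 library gave medians of 0.057 (without WT HFD replicate 3) to 0.35 (without labelled HFD_alcohol replicate 4), and as few as 11 positive without WT HFD replicate 1 or labelled HFD_alcohol replicate 2. The summed level of the list was 202 to 457 CPM on the high side and 167 to 300.2 CPM on the low side, which overlap. Away from chromosome 6 no gene was called. The lowest p there belonged to Pla1a, a phosphatidylserine phospholipase, with 21.5, 30.2 and 43.4 CPM in high-Mug2 livers, against 13.9, 17.8 and 26.4 CPM in low-Mug2 livers (adjusted p = 0.507, limma). Ighg2c, an immunoglobulin heavy chain constant gene, had 0.283, 0.445 and 4.87 CPM on the high side, against 2.08, 4.37 and 6.37 CPM on the low side (adjusted p = 0.540, limma). It was called without the 4 libraries set aside above, and also without labelled HFD replicate 3 alone. Bdh2, Lyrm1, Mettl21a and Srp54c were higher on the high side by 0.21 to 0.53 on the log2 scale, while Pla2r1, Rsf1, Tcf21 and Gjc3 had log2 differences of -0.72 to -0.30; none passed.

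Liver programmes outside the window were described through 26 gene lists. Apart from A2ml1 and Clec2h no listed gene was called, and 12 of the 26 lists had a median within 0.1 of 0. Members of 1 list vary together and no list was tested; each count reads against 44.0% positive over all genes.

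Several lists had most members on 1 side. Interferon-induced genes had 26 of 27 positive and a median of 0.28, and 24 with a median of 0.25 without the 4 libraries. The median was 0.30 on HFD_alcohol alone and -0.04 on HFD alone, and 0.12 among labelled and 0.45 among WT libraries. Without labelled HFD_alcohol replicate 2 alone 20 were positive (0.08). The summed level of this list had a median of 927.5 CPM on the high side and 924.4 CPM on the low side. Cholesterol synthesis genes had 22 of 25 positive (median 0.21), and 22 (0.24) without the 4 libraries. Single libraries moved this list: 16 were positive (0.07) without labelled HFD_alcohol replicate 4 alone, and 24 (0.44) without replicate 2 of that group alone. Cell cycle genes had 29 of 33 positive (0.14), and 17 (0.0090) without the 4 libraries. For this list 33 of 33 were positive among WT libraries (0.31) and 12 of 32 among labelled libraries (-0.04). On HFD alone 29 of 33 were positive (0.36), and on HFD_alcohol alone 10 of 33 (-0.07). Female-biased liver genes had 10 of 11 positive (0.37), and 10 (0.34) without the 4 libraries. Among WT libraries 5 of 10 were positive (-0.03), and among labelled libraries 7 of 9 (0.98). On HFD_alcohol alone 6 of 11 were positive (0.24), and on HFD alone 8 of 9 (0.54). Male-biased liver genes had 1 of 18 positive and the lowest median, -0.24; it was -0.07 with 8 positive without the 4 libraries, -1.27 on HFD alone and 0.67 on HFD_alcohol alone. Stellate cell and fibrosis genes had 1 of 14 positive (-0.21), 0 (-0.34) without the 4 libraries, and 0 among labelled but 11 among WT libraries.

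Other lists varied. Neutrophil genes had 3 of 3 positive (median 0.42), and 2 (0.12) without the 4 libraries. Immediate early genes had 4 of 16 positive (-0.20), and 1 of 15 (-0.25) without them. Cholangiocyte genes had 6 of 8 positive (0.15), T and NK cell genes 7 of 11 (0.11) and B cell genes 1 of 3 (-0.19). Their medians were 0.08, -0.13 and -0.27 without the 4 libraries. The lists from hepatocyte to Kupffer below had medians within 0.1 of 0 over the 16 libraries. The hepatocyte list (20 tested) had a median of -0.03, and 0.02 without the 4 libraries. Acute phase genes had 17 of 23 positive (0.05), and 9 (-0.0093) without the 4 libraries. Fatty acid oxidation (26 tested) had a median of 0.04, and 0.06 without them, and lipogenesis (19 tested) 0.04, and -0.04 without them. The Kupffer list (15 tested) had -0.04, and -0.05 without them, but 0.44 on HFD alone and -0.39 on HFD_alcohol alone. The diets also differed in sign for lipogenesis, with 0.44 on HFD alone and -0.095 on HFD_alcohol alone. In the same order fatty acid oxidation had 0.18 and -0.12, and acute phase genes -0.10 and 0.15. The highest median was that of oncofetal and tumour genes at 1.02, with 9 of 9 tested positive, and it was 0.38 with 8 positive without the 4 libraries. Afp in that list had 1.99, 18.8 and 155 CPM on the high side, against 0.873, 5.04 and 9.37 CPM on the low side (adjusted p = 0.9997, limma). Gpc3, an oncofetal proteoglycan, had 0.919, 14.02 and 263 CPM on the high side, against 1.26, 3.82 and 8.35 CPM on the low side. For both the high libraries spread across and beyond the low ones, and the share of this in any other difference was not tested.

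**Figure D5:**
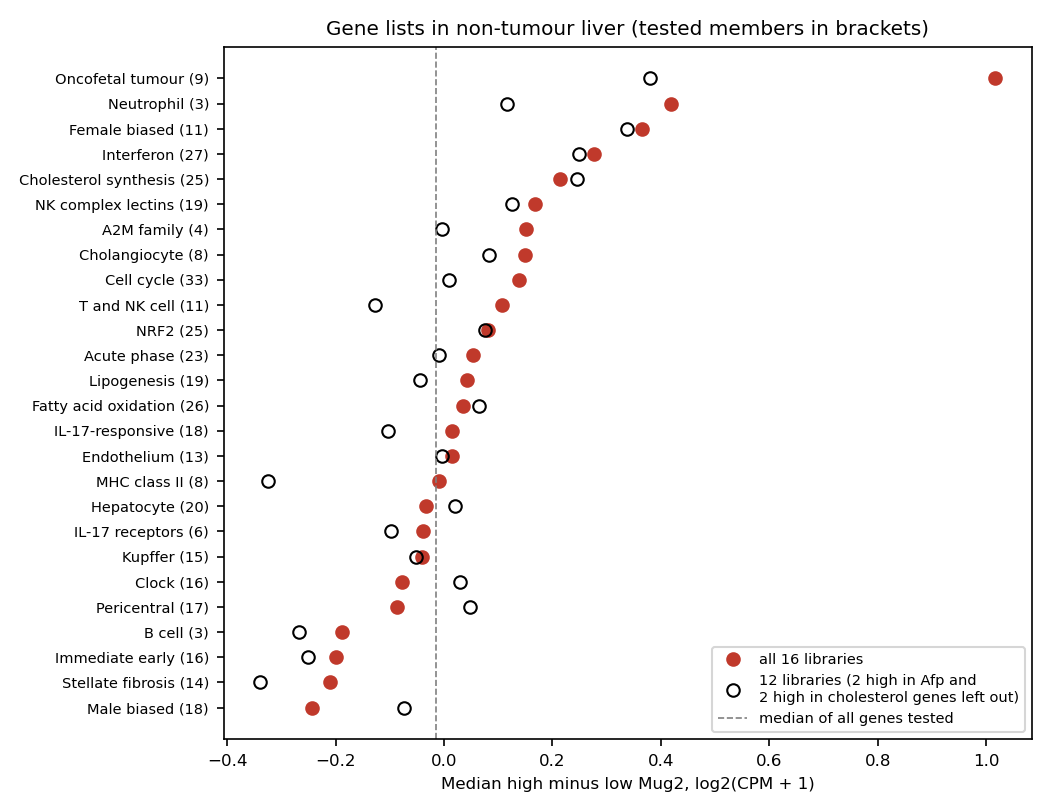
Median log2(CPM + 1) difference, high minus low Mug2, over the tested members of each gene list, with all 16 non-tumour libraries (red) and with 12 (open). The dashed line at -0.02 is the median of all genes tested; the oncofetal list is farthest from it at 1.02 and falls to 0.38 with 12 libraries.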

How the data were processed

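RNA was isolated on a silica column kit and made into strand-specific poly(A)-selected libraries, per the labels' protocols. The deposited values are CPM per gene, 1 column per library; the submitters' processing notes name STAR 2.5.1a, RSEM 1.3.0 and GRCm38 without their roles, and the annotation used for counting is not given in the sources used here. Of 22187 gene IDs, 21653 took a symbol and a position from GENCODE M21. Converted to counts, 84.3% to 86.6% of the values were whole within 0.002 and 100% were whole hundredths, as the fractional counts of RSEM would be, and the recovered depth was 3213696 to 9660584 counts. A floor of 3 counts is 0.311 to 0.934 CPM and covers counting error only.

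Sides followed the 400 CPM rule on Mug2, which stayed out of the tests. Genes that reached 1 CPM in 3 or more libraries were tested with limma 3.58.1 in R 4.3.3 (trend, log2(CPM + 1), two-sided, Benjamini-Hochberg over all genes tested, adjusted p under 0.05). The pseudocount of 1 shrinks the fitted differences of low genes. Median and range are given for groups over 5. On simulated data for 12686 genes with the 2 sides, 71% of 2-fold and 100% of 4-fold changes were recovered. The simulation gave every gene the same fixed spread. Genes with a wider spread between libraries are not covered by these shares, so larger differences can be missed. Named genes were Mug2, Il17ra, their families, genes called within 20 Mb of Il17ra, those of lowest p elsewhere and genes called in tumours; the others were named after their values were seen, and 1 gene near Il17ra is not reported here. The members, gene lists and tests were chosen with earlier results of these data known. Other pseudocounts, filters, scalings, models and sets of libraries were tried. Promoters are from RefSeq.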

Additional observations from a re-analysis of the deposited data

Results flagged for a closer look

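Among 164 sets of 4 to 10 libraries checked for 1 library far from the rest, 7 stood out, and chance alone gives about 1 in 20. WT HFD tumour replicate 4 accounts for 4 of them: within the 6 WT tumours it had the highest Bid at 22.9 CPM (next 12.4 CPM) and the highest Clec2h at 7.66 CPM (next 1.08 CPM). It also had the lowest Klrb1b at 0.928 CPM (next 45.6 CPM) and the lowest Pzp at 7240 CPM (next 14590 CPM). Labelled HFD_alcohol tumour replicate 5 had the lowest A2ml1 of the labelled tumours, at 0.968 CPM (next 8.55 CPM). In non-tumour liver, labelled HFD_alcohol replicate 2 had the highest Rsf1 of the low-Mug2 side, at 46.2 CPM (next 37.9 CPM). WT HFD_alcohol replicate 1 had the highest Traf6 of that side, at 40.8 CPM (next 33.4 CPM).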

How the results depend on the processing

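In non-tumour liver 4 genes were called between the Mug2 sides, all within 20 Mb of Il17ra. That count was 3 with a pseudocount of 0.1, 4 after median-ratio rescaling, 2 with Mug2 as a continuous term, 2 without a filter, 1 with diet and label in the model, 1 with limma-voom on recovered counts and 1 on HFD_alcohol alone. It was 0 within either label and 1 on HFD alone, where the gene, Hsd3b5, lies outside the window, which then held 0. Without the 4 libraries, a choice made after seeing the data, it was 3, of which 2 lay in the window, and leaving out 1 library gave 1 to 4. In tumours 5 genes were called, 4 within the window: leaving out 1 library gave 2 to 6, and 2 to 5 in the window. HFD_alcohol alone gave 1, in the window, and HFD alone 5, with 1 in the window. The label comparison in non-tumour liver and the side by label interaction called 0 in every setting run. With the replicate block the counts were 1 for the sides and 3 for tumours, 2 of them in the window; same-numbered libraries correlated at -0.16 to 0.47 over 20 non-tumour pairs, so the numbers are not taken to pair libraries. No named gene reversed its direction as a called result. Of 2986 single-gene values under other settings, 97 lost their call, 4 gained one and 3 that were not called changed sign by more than the spread between libraries; the cause was not tested. Depth limits genes under about 1 CPM, among them Tmem121b.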
